A study of Mus musculus with 7 samples.

Results

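The 34 genes described here are those of cholesterol synthesis, uptake and esterification, taken by name from a table of normalized counts for 23594 genes in mouse liver. All 34 were in the table. They were grouped by role into 8 genes of the mevalonate route, 11 genes that turn farnesyl diphosphate into cholesterol by way of squalene, 4 genes of sterol sensing, 8 genes of uptake and transport and 3 genes of esterification. A test was possible for 33 of them, and the exception was Npc1l1, whose mean over the livers lay under the minimum of 10 normalized counts.

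Cells make cholesterol from acetyl-CoA. Enzymes of the cytosol and of the endoplasmic reticulum build mevalonate and isoprenoid units from it. Others of the endoplasmic reticulum then join these units into squalene, close the rings and trim the sterol. When membrane sterol is low, the escort protein SCAP carries the transcription factor SREBP2, encoded by Srebf2, to the Golgi, where it is cut and released to switch on almost every gene of the route. When sterol is plentiful, INSIG proteins hold SCAP back. The liver both makes cholesterol and takes it up from lipoproteins, frees it from esters in the lysosome, and stores or secretes it again as esters.

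RNA was extracted from the livers of 3 TgL mice and 4 TgLC mice. Tamoxifen (TAM) had been given to both genotypes at 8 weeks of age, at 32 µg/g in females and 64 µg/g in males. TgL mice carry the mouse LIF gene, which encodes a cytokine of the interleukin-6 family, in the Rosa26 locus behind a CAG promoter and a STOP cassette, together with eGFP, and have no Cre. TgLC mice carry the same knock-in with R26-CreERT2, a tamoxifen-activated Cre expressed throughout the body, so that LIF is switched on in many tissues and not in the liver alone. The comparison of the genotypes thus asks how liver transcripts differ with systemic LIF overexpression, with TAM common to both groups. The paper reports that TgLC mice ate less after TAM, and no pair-fed group is among these livers. LIF, lower food intake and the presence of Cre therefore go together with genotype here and cannot be told apart. The sources used here do not give the sex of each mouse or the day and hour of collection. In all 7 livers Xist, the RNA of X inactivation, read 3521 to 9246 normalized counts and the Y-linked genes Ddx3y, Uty, Kdm5d and Eif2s3y 0 to 10.2. Each liver is one mouse, and livers are named by genotype and number.

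The libraries held 9367681 to 12448961 reads in genes, and every pair of livers of one genotype differed by more than sampling noise. Lif itself read 0 to 1.99 normalized counts in TgL livers and 10 to 25.0 in TgLC livers, so the labels and the transgene matched in all 7. Summed hepatocyte markers were high throughout (1138850 to 1197955 normalized counts in TgL, 1004785 to 1071618 in TgLC), but the 6 markers did not move together. Cps1 and Ttr were lower, Fga and Hnf4a higher, and Alb and Apoa1 did not pass. Mean Alb was 959092 in TgL and 629206 in TgLC livers, and mean Fga 48702 and 288500. The sum thus does not show that hepatocyte content was alike. Exocrine pancreas markers summed to 352 to 615 in TgL livers and 2.02 to 5 in TgLC livers, and neutrophil markers to 7.96 to 36.7 and 63.1 to 136. Of the neutrophil markers, S100a8, S100a9 and Retnlg were higher. Ly6g, Mpo and Camp read 0 to 4 normalized counts in all livers, too few for a test. The part of these other cells in the values reported here was not tested. In bulk tissue, fewer cells of a type and less RNA per cell cannot be told apart. TgL 3 stood apart from TgL 1 and 2 in several genes of the circadian clock. Its Dbp, a clock output gene, read 45.9 normalized counts against 548 and 733, within the TgLC range of 34 to 151, and its Per3 read 103 against 393 and 611. Because several sterol genes also read highest of the TgL livers in TgL 3, the values without this liver are given wherever they change a call, and the part of the hour of collection in the results was not tested.

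Of the 33 genes tested, 9 were lower in TgLC livers, 3 were higher and 21 did not pass at an adjusted p under 0.05 by limma. Over all 13145 genes tested, 15% were lower and 16.2% higher by the same rule, so 27.3% of the members were lower and 9.09% higher. With the further demand of at least a 2-fold difference, 4 members were lower (Sc5d, Tm7sf2, Insig1 and Acat2) and none higher, against 6.65% and 7.53% of all genes. The median log2 fold change of the members was -0.43, and that of all genes tested was 0.0018. Over all 13145 genes, a single TgLC liver lay below every TgL liver for 4929 to 5090 genes. It lay above every TgL liver for 4922 to 5314. The share with all TgLC livers outside the TgL range at once is not given, so the separations below only describe single genes. The members that were lower lay at isolated steps of the synthesis route, in sterol sensing and in the handling of sterol in lysosomes and between membranes, and the 3 that were higher were Insig2, Scarb1 and Lcat. When edgeR was run with library totals in place of size factors, which shifted the median of all genes by -0.31, the split became 13 lower and 0 higher. In that fit 5541 of all 13572 genes tested passed.

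**Figure D1:**
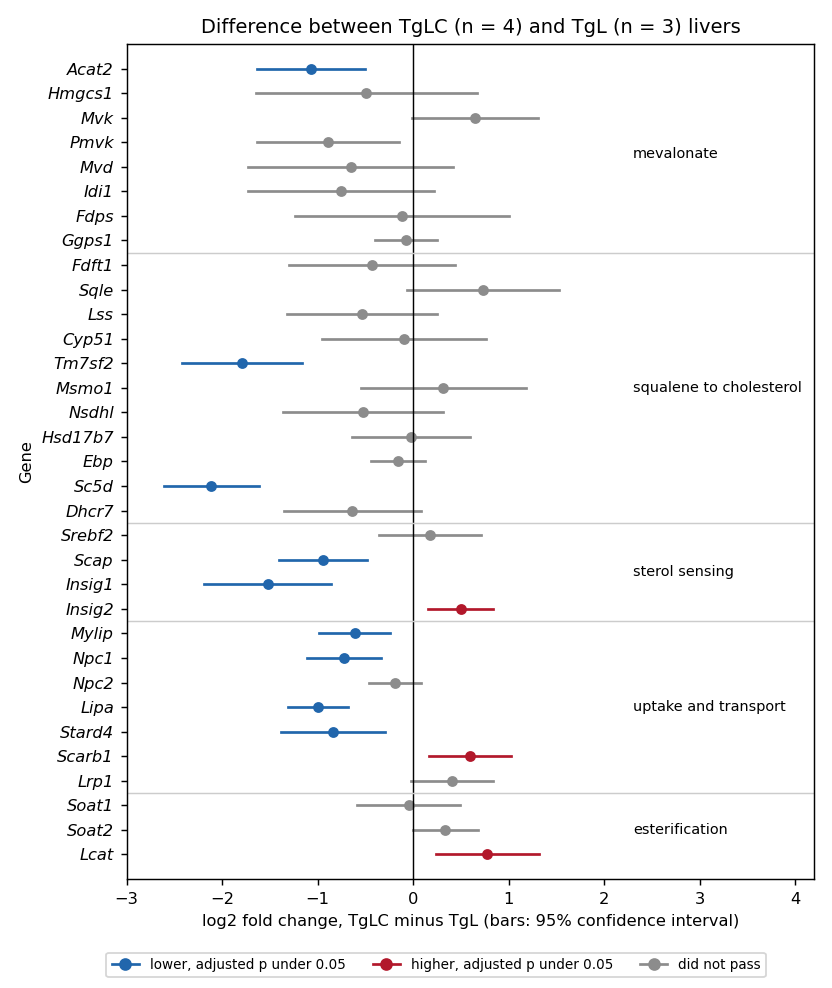
Log2 fold change (x axis, TgLC minus TgL, on log2(normalized count + 1)) of the 33 genes tested, in rows by role, with 95% confidence intervals as bars. The 9 blue genes were lower and the 3 red genes higher at an adjusted p under 0.05, and the values run from -2.11 for Sc5d to 0.78 for Lcat.

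Most synthesis genes did not pass on their own. Of the 19, 16 had a fold change below 0 and the median was -0.49 on the log2 scale, yet only 3 were lower by the test (15.8%, beside 15% of all genes) and none higher by limma. At an unadjusted p under 0.05, none was higher by limma and 2 were by edgeR or DESeq2, which called none after adjustment. Without TgLC 1 the median was -0.14, and 3 genes (Mvk, Sqle and Msmo1) then passed as higher. Without TgL 3 it was -0.20. The 4 livers whose labels fall in one number series (TgL 1 and 2, TgLC 1 and 2) gave a median of -0.55, and the 3 livers outside it -0.52. These 3 do not share a series. TgL 3 bears a later number (8530), and TgLC 3 and 4 bear labels of another form that no TgL liver has. The covariate used next sets these 3 as one level, so label and genotype cannot be told apart among them. With the label series as a covariate, 5 synthesis genes were lower and 0 higher by limma, the 2 gained being Pmvk (-1.0001, limma adjusted p = 0.0224) and Dhcr7 (-0.77, limma adjusted p = 0.0223), and 11 members were lower and 4 higher. In that fit 4384 of all 13145 genes tested passed, against 4104 in the main fit.

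Promoters are shown for description, since genes of the synthesis route, almost all switched on by SREBP2, differed from one another in these livers. RefSeq windows (GRCm38.p6), reaching from 250 bases before the start to 50 after it, were at hand for 27 of the 34 members and 16 of the 19 synthesis genes. The letters TCACNCCAC, a core of the sterol response element that SREBP2 binds, were searched on both strands and lay in 1 of the 27, Hmgcs1, at 137 bases before the start, against 1.44% of all 27025 genes with such a window. The letters CCAAT, the box bound by NF-Y, a partner of SREBP at sterol promoters, lay on one strand or the other in 24 of the 27 members and in 15 of the 16 synthesis genes (93.8%, against 41.1% of all genes). TTCNNNGAA, the core of the STAT site, which reads alike on both strands, lay in 2 of the 16 synthesis genes, Ebp and Ggps1 (12.5%, against 9.55%), and, with Lrp1, in 3 of the 27 members. These matches are descriptions of the letters. The 250 bases before the start are printed for Hmgcs1, which holds both sterol-promoter motifs, and for Sc5d, Tm7sf2 and Insig1, which were chosen after their values were seen because they had the largest falls. Each is written 5′ to 3′ on the strand of the gene, and capitals mark the sterol response element core (TCACCCCAC) and CCAAT boxes, all of which read ATTGG here because they lie on the opposite strand. Hmgcs1 is at chr13:119690101-119690350 (plus strand), Sc5d at chr9:42264301-42264550 (minus), Tm7sf2 at chr19:6067851-6068100 (minus) and Insig1 at chr5:28071162-28071411 (plus).
Hmgcs1: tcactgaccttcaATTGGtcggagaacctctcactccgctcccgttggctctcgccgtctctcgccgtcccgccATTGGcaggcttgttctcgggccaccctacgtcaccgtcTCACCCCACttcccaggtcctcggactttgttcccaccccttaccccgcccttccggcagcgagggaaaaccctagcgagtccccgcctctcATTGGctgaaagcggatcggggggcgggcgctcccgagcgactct
Sc5d: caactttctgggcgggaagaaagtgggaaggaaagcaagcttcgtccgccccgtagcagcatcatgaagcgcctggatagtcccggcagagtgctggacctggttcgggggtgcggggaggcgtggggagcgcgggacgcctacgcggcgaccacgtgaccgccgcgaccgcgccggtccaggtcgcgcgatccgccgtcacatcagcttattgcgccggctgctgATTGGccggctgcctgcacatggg
Tm7sf2: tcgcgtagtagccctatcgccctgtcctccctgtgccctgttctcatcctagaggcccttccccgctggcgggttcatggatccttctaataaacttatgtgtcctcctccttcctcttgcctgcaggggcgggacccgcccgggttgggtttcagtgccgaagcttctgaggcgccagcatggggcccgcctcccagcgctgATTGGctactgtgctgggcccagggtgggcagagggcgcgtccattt
Insig1: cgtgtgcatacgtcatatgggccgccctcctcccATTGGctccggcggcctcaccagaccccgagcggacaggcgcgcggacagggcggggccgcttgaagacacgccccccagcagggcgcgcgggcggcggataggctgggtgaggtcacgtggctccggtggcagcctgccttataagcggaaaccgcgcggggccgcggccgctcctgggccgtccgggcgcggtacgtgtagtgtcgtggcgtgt
Hmgcs1 shows 3 CCAAT boxes in this stretch and the other promoters 1 each. In Sc5d and Tm7sf2 the box lies close to the start (24 and 47 bases before it), and in Insig1 it lies 216 bases before it.

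In the mevalonate route, 1 of 8 genes was lower in TgLC livers (12.5%, beside 15% of all genes tested) and 7 did not pass. Acat2 encodes the cytosolic thiolase that joins acetyl-CoA units at the head of the route. Its normalized counts were 774, 819 and 1134 in TgL livers and 298, 391, 430.0 and 656 in TgLC livers, in the order of the liver numbers, which holds for all values given in this way. Every TgLC liver lay below every TgL liver, TgLC 1 lowest (log2 fold change -1.07, standard error 0.25, limma adjusted p = 0.0116), and the call held with each liver left out in turn. Its near-copy Acat3, of which 1477 bases align at 97.7% identity, read 1681, 1482 and 1688 in TgL livers and 902, 665, 804 and 617 in TgLC livers (log2 fold change -1.13, limma adjusted p = 6.37e-04), so reads shared between them cannot be told apart.

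Hmgcs1, the cytosolic HMG-CoA synthase, held the widest range of the route in the control livers. It read 4023, 1986 and 7033 in TgL livers and 1189, 3116, 2969 and 5034 in TgLC livers. The groups overlapped, with TgL 3 highest and TgLC 1 lowest of all (log2 fold change -0.49, standard error 0.51, limma adjusted p = 0.499). Mvk encodes mevalonate kinase, and its values were 324, 204 and 330.4 in TgL livers and 278, 382, 549 and 631 in TgLC livers. Here 3 of the 4 TgLC livers lay above all TgL livers and TgLC 1 lay within them. The difference did not pass (log2 fold change 0.65, standard error 0.29, limma adjusted p = 0.123), but it did without TgLC 1 (0.86, limma adjusted p = 0.0282).

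The next kinase, encoded by Pmvk, went the other way. It read 503, 511 and 777 in TgL livers and 165, 377, 326 and 481 in TgLC livers. All TgLC livers lay below the TgL livers, with TgLC 4 close to them, and the test did not pass (log2 fold change -0.89, standard error 0.33, limma adjusted p = 0.0692). Without TgLC 4 it did (-1.10, limma adjusted p = 0.0370). With all livers, Pmvk also passed by DESeq2 (-0.82, DESeq2 adjusted p = 0.0423) and by edgeR with library totals (-1.14, edgeR adjusted p = 0.0179). By edgeR with TMM it did not (-0.85, edgeR adjusted p = 0.0646). Mvd, the decarboxylase that yields the isoprenoid unit, read 269, 217 and 623 in TgL livers and 109, 266, 163 and 411 in TgLC livers, and Idi1, the isomerase of that unit, 1124, 803 and 1366 in TgL livers and 258, 788, 728 and 1093 in TgLC livers. Both had TgLC 1 at the bottom and TgL 3 at the top, the groups overlapped and neither passed (log2 fold changes -0.66 and -0.76, limma adjusted p = 0.326 and 0.212). Idi1 shares 684 bases at 100% identity with the annotated gene Gm13502, which itself read 111, 85.6 and 147 in TgL livers and 34, 81.9, 8.10 and 11 in TgLC livers, so its level is uncertain.

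Fdps, the synthase of farnesyl diphosphate, read 60.8, 64.7 and 92.8 in TgL livers and 35, 123, 34.4 and 125 in TgLC livers. TgLC 2 and 4 lay above all TgL livers and TgLC 1 and 3 below them, so the fold change (log2 fold change -0.12, standard error 0.49, limma adjusted p = 0.876) says little of any one liver. Its level is uncertain, since 5 other annotated genes share long stretches with it, and one of these, Gm3571, itself read 201, 207 and 261 in TgL livers and 51, 143, 119 and 233 in TgLC livers. Ggps1, which makes geranylgeranyl diphosphate for protein prenylation off the sterol route, lay between 80.9 and 100 normalized counts in all 7 livers (log2 fold change -0.08).

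Between squalene and cholesterol, 2 of 11 genes were lower (18.2%, beside 15% of all genes tested) and 9 did not pass. Sc5d and Tm7sf2 fell furthest of all 33 members tested. Sc5d encodes the sterol desaturase that acts on lathosterol near the end of the route. Its normalized counts were 6799.6, 7386 and 11027 in TgL livers and 1412, 2116, 1803 and 2401 in TgLC livers. The highest TgLC liver reached well under the lowest TgL liver, the means were 8404 ± 2290.2 in TgL (SD, n = 3) against 1933 ± 425 in TgLC livers (SD, n = 4), and the ratio of means was 4.35 (log2 fold change -2.11, standard error 0.22, limma adjusted p = 1.72e-04). Per kilobase of exon, Sc5d had the highest mean level of the 19 synthesis genes in TgL livers (1727 normalized counts per kilobase) and the fifth in TgLC livers (397), behind Ebp, Hmgcs1, Cyp51 and Sqle.

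Tm7sf2 encodes a sterol reductase of the endoplasmic reticulum that acts after the demethylation of lanosterol, a step it shares with the lamin B receptor. It read 1372, 1322 and 1806 in TgL livers and 243, 454, 542 and 561 in TgLC livers. No TgLC liver came near the TgL livers, and TgLC 1 was lowest (log2 fold change -1.79, standard error 0.28, limma adjusted p = 0.00154). The ratio of means was 3.33. In the annotation 532 of its bases are shared with its neighbour Vps51, and since the strand setting of the counting is not known here, reads of that stretch are uncertain. Both Sc5d and Tm7sf2 kept their call in each of the 17 alternative settings tried.

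Squalene synthase (Fdft1) and squalene epoxidase (Sqle) act one after the other on the way to the first sterol. Fdft1 read 1773, 1458 and 2274 in TgL livers and 619, 1472, 1485 and 2359 in TgLC livers, with only TgLC 1 below the TgL livers (log2 fold change -0.43, standard error 0.38, limma adjusted p = 0.422). It shares 1249 bases with the pseudogene Gm6781 and 774 with its neighbour Ctsb, so part of its reads is uncertain. Sqle read 1148, 1078 and 1833 in TgL livers and 1103, 2675, 2288 and 3362 in TgLC livers. TgLC 2, 3 and 4 lay above all TgL livers and TgLC 1 among them, and the difference did not pass (log2 fold change 0.73, standard error 0.35, limma adjusted p = 0.147, 95% confidence interval -0.06 to 1.53). Without TgLC 1 it passed (1.06, limma adjusted p = 0.00957). Msmo1, the methylsterol monooxygenase that starts the removal of methyl groups from the ring, read 1828, 1388 and 2094 in TgL livers and 994, 2551, 2331 and 3745 in TgLC livers. TgLC 2, 3 and 4 again lay above all TgL livers, while TgLC 1 lay below them. It did not pass either (log2 fold change 0.31, standard error 0.38, limma adjusted p = 0.564), and without TgLC 1 it did (0.69, limma adjusted p = 0.0425).

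The remaining ring-modifying genes overlapped between genotypes. Lss, lanosterol synthase, read 748, 844 and 1209 in TgL livers and 379, 735, 486 and 1158 in TgLC livers. Cyp51, the lanosterol demethylase, read 1960.1, 1646 and 2949.8 in TgL livers and 958, 2088, 2249 and 3396 in TgLC livers, and Nsdhl, a dehydrogenase of the demethylation complex, 782, 769 and 1079 in TgL livers and 278, 837, 614 and 916 in TgLC livers. In each of them TgLC 1 was lowest of all 7 livers, and their log2 fold changes were -0.54, -0.10 and -0.52. Hsd17b7, the ketosteroid reductase of the same complex, read 782, 677 and 1024 in TgL livers and 515, 1013, 685 and 1160.1 in TgLC livers, and its fold change of -0.02 turned positive under several settings, as did that of Cyp51. Ebp, the sterol isomerase, varied little, between 1884 and 2617 in all livers (log2 fold change -0.16).

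Dhcr7 encodes the reductase of dehydrocholesterol, the last enzyme listed. It read 1008, 916 and 1446 in TgL livers and 416, 651, 765 and 1204 in TgLC livers. TgLC 1, 2 and 3 lay below the TgL livers and TgLC 4 among them (log2 fold change -0.64, standard error 0.32, limma adjusted p = 0.159). It passed without TgLC 4 (-0.89, limma adjusted p = 0.0357) and among the 4 livers of one label series (-0.88, limma adjusted p = 0.0135).

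Beyond the genotype difference, the TgLC livers varied among themselves in these genes more than in most others. This variation was known when a liver-by-liver account of these genes was planned. The shares here and in the next paragraph therefore describe it and lend it no support. The highest TgLC liver was at least 2 times the lowest for 16 of 19 synthesis genes (84.2%), against 24.0% of all genes tested. Among TgL livers the same held for 2 of 19 (10.5%, against 10.3%), Hmgcs1 and Mvd. The median SD on the log2 scale was 0.69 among TgLC livers over the synthesis genes and 0.27 over all genes. This spread rested most on TgLC 1. Without it, 3 of 19 genes (15.8%) had a 2-fold range, against 18.3% of all genes. The median SD was then 0.37, against 0.26. Without TgLC 4, 11 of 19 (57.9%) had such a range, against 17.8%, and without TgLC 2 or TgLC 3 it stayed at 16 of 19. No test was run on the spread, since the 19 genes are not replicates.

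The livers kept nearly the same order from gene to gene. TgLC 1 was the lowest TgLC liver for 17 of the 19 synthesis genes (89.5%, against 28.9% of all genes), TgLC 4 the highest for 17 (89.5%, against 25.4%), and TgL 3 the highest TgL liver for 18 (94.7%, against 35.8%). The median deviation from the TgL mean over the 19 genes was -0.11, -0.27 and 0.35 on the log2 scale in TgL 1, 2 and 3. In TgLC livers it was -1.40, -0.29, -0.49 and 0.31. TgLC 4 thus lay at the height of TgL 3, and TgLC 1 far below every other liver, while TgLC 2 and 3 lay beside or a little below the lower TgL livers. Among the other members, Srebf2, Scap, Insig1 and Stard4 had the same lowest and highest livers. Red cell markers (Hba-a1, Hbb-bs and Alas2) also read highest of the TgL livers in TgL 3 and ran from TgLC 1 at the bottom to TgLC 4 at the top. Their sum was 991, 949 and 1701 normalized counts in TgL livers and 1326, 2306, 6847 and 8596 in TgLC livers, and their part in the order of the synthesis genes was not tested.

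**Figure D2:**
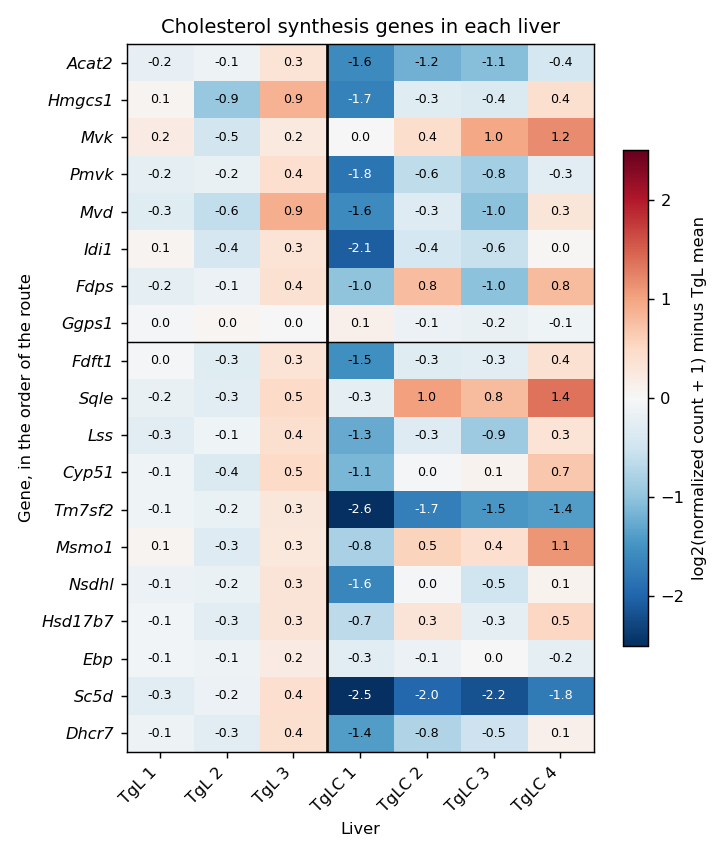
Heatmap of log2(normalized count + 1) minus the TgL mean for the 19 synthesis genes (rows, in the order of the route, the line parting the mevalonate genes from those after it) in the 3 TgL and 4 TgLC livers (columns), blue below and red above the TgL mean. TgLC 1 is blue in most rows and TgLC 4 red in many, with medians of -1.40 and 0.31, while Sc5d and Tm7sf2 are blue in all TgLC livers.

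Subtracting from each liver the median deviation of the 19 genes shows which genes parted from the rest of the route. This view was chosen after the values were seen. Relative to the route, 5 genes were higher in every TgLC liver than in any TgL liver (Mvk, Sqle, Cyp51, Msmo1 and Hsd17b7) and 4 were lower (Acat2, Pmvk, Tm7sf2 and Sc5d). Over all genes tested, put through the same subtraction, 17.7% were higher and 2.51% lower without overlap. The subtracted median is that of the 19 genes themselves, and in TgLC livers it ran from -1.40 in TgLC 1 to 0.31 in TgLC 4. It centres the 19 genes in each liver but shifts all other genes, so these shares are no like background for the 5 and 4 genes. Sqle lay within a narrow band, 1.05 to 1.32 in the 4 TgLC livers against -0.08 to 0.13 in TgL livers, although before the subtraction it spanned 1.61 on the log2 scale among TgLC livers. Msmo1 lay at 0.59 to 0.91 against -0.09 to 0.18. On the low side, Sc5d lay at -2.08 to -1.14 against -0.16 to 0.11, and Tm7sf2 at -1.71 to -0.96 against -0.07 to 0.10. Hmgcs1, Fdft1 and Lss stayed near the route median in TgLC livers. In Ebp and Ggps1, which did not share the livers' order, the subtraction widened the range.

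**Figure D3:**
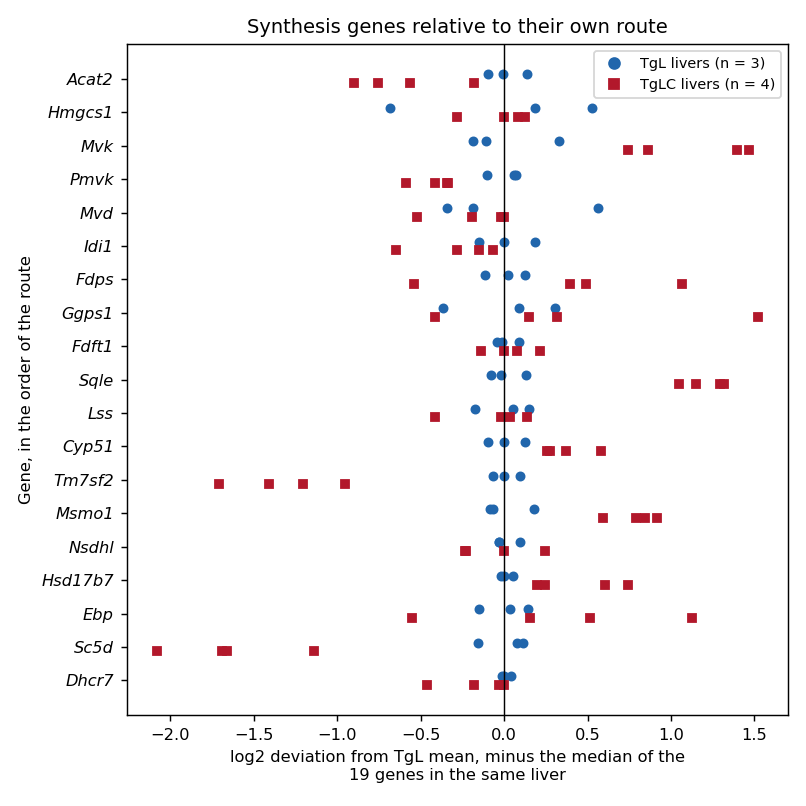
Log2 deviation from the TgL mean minus the median of the 19 synthesis genes in the same liver (x axis) for each gene (rows), with TgL livers as blue circles and TgLC livers as red squares. Sqle sits at 1.05 to 1.32 and Sc5d at -2.08 to -1.14 in TgLC livers, both clear of the TgL livers.

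Sterol sensing was split: 2 of its 4 genes were lower, 1 was higher and Srebf2 did not pass. Over all genes tested, 15% were lower and 16.2% higher. Srebf2 read 793, 675 and 996 in TgL livers and 599, 929, 1032 and 1221 in TgLC livers, and the groups overlapped with TgLC 1 lowest and TgLC 4 highest of all livers (log2 fold change 0.17, standard error 0.24, limma adjusted p = 0.605). Scap, which encodes the escort of SREBP, read 1211, 1414 and 1618 in TgL livers and 542, 638, 849 and 966 in TgLC livers. All TgLC livers lay below all TgL livers (log2 fold change -0.94, standard error 0.20, limma adjusted p = 0.00811). The call for Scap held without each liver in turn.

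Insig1 and Insig2 encode proteins of the same kind that retain SCAP, and they moved in opposite directions. Insig1, itself switched on by SREBP, read 4019, 4050.1 and 6616 in TgL livers and 1046, 1652, 1659 and 2619 in TgLC livers. TgLC livers were lower without overlap and the ratio of means was 2.81 (log2 fold change -1.52, standard error 0.30, limma adjusted p = 0.00469). Insig2 read 2024, 1671 and 2441 in TgL livers and 3095, 2499, 2808 and 3036 in TgLC livers, with every TgLC liver above every TgL liver (log2 fold change 0.50, standard error 0.15, limma adjusted p = 0.033). Per kilobase of exon, the mean Insig1 level was 1583 normalized counts against 589 for Insig2 in TgL livers, and 564 against 823 in TgLC livers, so the order of the means was reversed. The call for Insig2 rested on single livers, and it no longer passed without TgL 1, TgL 2, TgLC 1 or TgLC 4 (limma adjusted p = 0.0989, 0.139, 0.0656 and 0.0725).

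Among the genes that take up sterol or move it within the cell, 4 of the 7 tested were lower and 1 was higher. These shares were 57.1% and 14.3%, beside 15% and 16.2% of all genes tested. Lipa, lysosomal acid lipase, frees cholesterol from the esters of lipoproteins taken up. It read 2614, 2657 and 3309.7 in TgL livers and 1302, 1306, 1698 and 1431 in TgLC livers. Every TgLC liver lay below every TgL liver, with little spread in either group (log2 fold change -0.995, standard error 0.14, limma adjusted p = 8.95e-04, ratio of means 1.99), and the call held without any one liver. Npc1, the membrane protein that exports cholesterol from the lysosome, read 1437, 1653 and 1145 in TgL livers and 745, 733, 876 and 1058 in TgLC livers. It was lower without overlap (log2 fold change -0.73, standard error 0.17, limma adjusted p = 0.012), although not past the threshold without TgL 1 or TgL 2 (limma adjusted p = 0.0507 and 0.0585). Npc2, its soluble partner, lay between 606 and 844 in all livers and did not pass (log2 fold change -0.19).

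Stard4 carries sterol between membranes and is a target of SREBP2. It read 1630.2, 1692 and 1927 in TgL livers and 591, 1095, 1078 and 1289 in TgLC livers, lower in all TgLC livers, with TgLC 1 lowest (log2 fold change -0.84, standard error 0.24, limma adjusted p = 0.0269). Mylip encodes the ubiquitin ligase that marks lipoprotein receptors for breakdown, and read 163, 167 and 165 in TgL livers and 134, 92.1, 93.1 and 117 in TgLC livers. The TgL values were almost equal and the TgLC values all below them (log2 fold change -0.61, standard error 0.16, limma adjusted p = 0.0215). Neither Stard4 nor Mylip passed when any one TgL liver was left out (limma adjusted p = 0.0673 to 0.0885 and 0.0597 to 0.0735). Among the 4 livers of one label series Stard4 passed (-1.04, limma adjusted p = 0.0185) and Mylip did not (-0.57, limma adjusted p = 0.0614).

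Scarb1, the receptor that takes cholesteryl esters from high-density lipoprotein, was the uptake gene that rose. It read 1334, 1309.9 and 1063 in TgL livers and 1455, 1649, 2538 and 1964 in TgLC livers. All TgLC livers lay above the TgL livers, TgLC 1 by little and TgLC 3 by most (log2 fold change 0.60, standard error 0.19, limma adjusted p = 0.0407). The call was lost without any one TgL liver, TgLC 3 or TgLC 4 (limma adjusted p = 0.0511 to 0.137). Among the 4 livers of one label series Scarb1 did not pass (0.23, limma adjusted p = 0.0997). In the 3 livers outside that series its log2 fold change was 1.07. Lrp1, the large endocytic receptor for lipoprotein remnants, read 13231, 13396 and 11895 in TgL livers and 20135, 20474, 15899 and 12562 in TgLC livers. TgLC 1 and 2 were highest and TgLC 4 lay among the TgL livers (log2 fold change 0.40, standard error 0.19, limma adjusted p = 0.141). In the 4 livers of one label series, which hold TgLC 1 and 2, it passed (0.61, limma adjusted p = 0.00408), and it also passed without TgLC 4 (0.55, limma adjusted p = 0.0369). Markers of stellate cells, which also express Lrp1, summed to 3535 and 2375 in those livers and 1288 and 1296 in TgLC 3 and 4, against 1481 to 1806 in TgL livers. These markers did not move together between genotypes. Des and Rgs5 were higher, while Lrat, Pdgfrb and Reln did not pass, and the log2 fold change of Reln was -1.12. Their part in the values of Lrp1 was not tested.

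Npc1l1, which takes up sterol in the gut and is little expressed in mouse liver, was at 0 in TgL 1 and 2 and in TgLC 1, 3 and 4. TgL 3 held 15.3 normalized counts and TgLC 2 held 1.02. In TgL 3 the intestinal genes Vil1 (24.5 normalized counts, against 0 to 6.26 elsewhere) and Alpi (5.10, against 0 elsewhere) were also at their highest. The more abundant intestinal markers were not: Fabp2 read 379, 466 and 461 in TgL livers and 116, 117, 218 and 210.4 in TgLC livers and Lgals4 108, 89.6 and 83.6 in TgL livers and 56, 43, 55.7 and 55.1 in TgLC livers, and the sum of the 4 markers measured was 574 in TgL 3 against 494 and 561 in the other TgL livers. The part of intestinal RNA in the Npc1l1 value was not tested.

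Of the 3 genes that esterify cholesterol, only Lcat passed, as higher (33.3%, beside 16.2% of all genes tested). Lcat encodes the enzyme that the liver secretes to esterify cholesterol on lipoproteins in plasma. It read 3698, 3246 and 2874 in TgL livers and 4375, 4229.7, 8378 and 6246 in TgLC livers. Every TgLC liver lay above every TgL liver, TgLC 3 and 4 furthest (log2 fold change 0.78, standard error 0.24, limma adjusted p = 0.0347). The call was lost without any one TgL liver or without TgLC 4 (limma adjusted p = 0.0651 to 0.113). Among the 4 livers of one label series the log2 fold change of Lcat was 0.31 (limma adjusted p = 0.0431). In the 3 livers outside that series it was 1.33. Soat2, the acyltransferase of hepatocytes that esterifies cholesterol inside the cell and is distinct from Acat2 despite a shared older name, read 586, 526 and 402 in TgL livers and 602, 650.0, 566 and 711 in TgLC livers. TgLC 1, 2 and 4 lay above the TgL livers and TgLC 3 among them (log2 fold change 0.34, standard error 0.15, limma adjusted p = 0.122). Its relative Soat1, the form of macrophages and many other cells, read 75.1, 80.6 and 120.3 in TgL livers and 105, 109.5, 71.8 and 69.1 in TgLC livers, low and overlapping (log2 fold change -0.05, standard error 0.24, limma adjusted p = 0.894, 95% confidence interval -0.59 to 0.49). Markers of Kupffer cells, the macrophages of the liver, summed to 2635 to 3536 in TgL and 1871 to 3458 in TgLC livers.

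**Figure D4:**
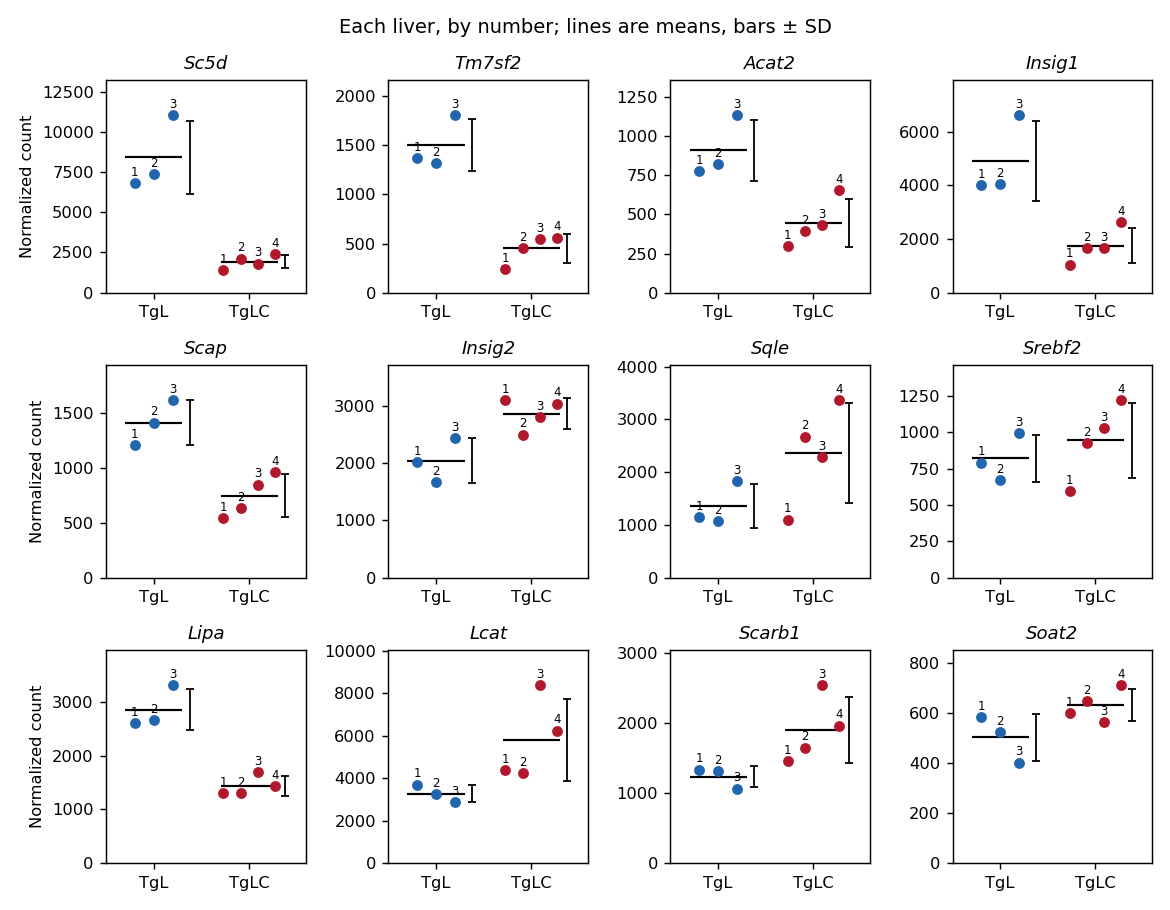
Normalized counts (y axis, from 0) of 12 members in each TgL liver (blue) and TgLC liver (red), numbered by liver, with group means as lines and ± SD as bars. Sc5d, Tm7sf2, Acat2, Insig1, Scap and Lipa separate the genotypes with TgLC below, Insig2, Lcat and Scarb1 with TgLC above, and Sqle, Srebf2 and Soat2 overlap. The 12 were picked for display, so their split is no share of the members.

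Other genes of the pathway, from lists drawn up apart from the 34, were split as well. Over all genes tested 15% were lower and 16.2% higher. The shares lower and higher were 11.1% and 33.3% for SREBP processing and 50% and 25% for sterol efflux with the oxysterol receptors. They were 0% and 20% for the isoprenoid branches, 18.2% and 18.2% for sterol transport, and 14.3% and 28.6% for the further receptors. Of 9 genes that process SREBP or act on it at the membrane, 1 was lower (Erlin2, log2 fold change -0.44, standard error 0.11, limma adjusted p = 0.0168) and 3 were higher, among them Erlin1 (log2 fold change 0.48, standard error 0.12, limma adjusted p = 0.0173) and Mbtps1, the Golgi protease that makes the first cut in SREBP (log2 fold change 0.40, standard error 0.12, limma adjusted p = 0.0299). ERLIN1 and ERLIN2 are partner proteins that bind cholesterol in the endoplasmic reticulum. Of 8 genes of sterol efflux and the oxysterol receptors (LXR), 4 were lower and 2 higher. Lpcat3, a phospholipid-remodelling enzyme induced by LXR, read 824, 904 and 915 in TgL livers and 335, 385, 499 and 575 in TgLC livers (log2 fold change -1.003, standard error 0.18, limma adjusted p = 0.00359). Pltp, the phospholipid transfer protein, was also lower (log2 fold change -0.94, standard error 0.19, limma adjusted p = 0.00582). Abca1, the pump that loads cholesterol onto apolipoprotein A-I, read 2637, 2642 and 3209.8 in TgL livers and 8182, 6514, 4127 and 4707 in TgLC livers, higher in every TgLC liver and most so in TgLC 1 and 2 (log2 fold change 1.01, standard error 0.23, limma adjusted p = 0.00968). Its relative Abcg1 was higher as well (log2 fold change 0.63, standard error 0.20, limma adjusted p = 0.0409). The pumps did not move together. Abcg5 (log2 fold change -0.65, standard error 0.19, limma adjusted p = 0.0310) and Abcg8 (log2 fold change -1.16, standard error 0.25, limma adjusted p = 0.0076) were lower.

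The branches that lead isoprenoids to coenzyme Q, dolichol and prenylated proteins held no gene that was lower among 10, beside 15% of all genes tested. Nor was any lower at an unadjusted p under 0.05 by limma, edgeR with TMM or DESeq2. A list of 10 is too short for this absence to be read as a result. With library totals edgeR called 2 lower, and limma on the 4 livers of one label series had 1 at an unadjusted p under 0.05. The 2 that were higher were Nus1, a subunit of the dolichol-making transferase (log2 fold change 0.59, standard error 0.11, limma adjusted p = 0.00463), and Rce1, the protease that trims prenylated proteins (log2 fold change 0.55, standard error 0.17, limma adjusted p = 0.0378). Of 11 genes that carry sterol within cells, 2 were lower, Osbpl8 (log2 fold change -1.12, standard error 0.18, limma adjusted p = 0.00182) and Gramd1c (log2 fold change -1.14, standard error 0.18, limma adjusted p = 0.00189), and 2 were higher, Osbp (log2 fold change 0.54, standard error 0.15, limma adjusted p = 0.0239) and Gramd1a (log2 fold change 0.56, standard error 0.17, limma adjusted p = 0.0355). Among 14 further lipoprotein receptors and adaptors tested, 2 were lower and 4 higher. Vldlr, the receptor for very-low-density lipoprotein, fell most of all genes named here. It read 127, 96.5 and 103 in TgL livers and 15, 5.12, 6.07 and 5.01 in TgLC livers, with all TgLC livers far below the TgL livers (log2 fold change -3.76, standard error 0.37, limma adjusted p = 1.32e-04). Lrp4 was lower too (log2 fold change -0.82, standard error 0.22, limma adjusted p = 0.0194). Lrp10 (log2 fold change 0.83, standard error 0.13, limma adjusted p = 0.00133) and the macrophage scavenger receptor Msr1 (log2 fold change 1.17, standard error 0.20, limma adjusted p = 0.00244) were higher.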

How the data were processed

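Liver RNA of 3 TgL and 4 TgLC mice was sequenced in bulk. The submitters' processing notes name DESeq2 1.20.0, featureCounts 1.5.0-p3, HISAT2 2.0.5 and fastp, while a genome build was not given in the sources used here, nor an annotation or a strand setting. The deposited values are a normalized signal, counts per gene that the authors divided by a size factor for each liver. Dividing by the smallest step of each liver gave whole reads for 100% of values (tolerance 1e-06), and these served the count tests.

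Genotype differences were tested by limma 3.58.1 (R 4.3.3) with an intensity trend on log2(normalized count + 1), a scale that understates changes of low genes, over 13145 genes with a mean of at least 10, with Benjamini-Hochberg adjustment over all of them and a threshold of 0.05. Each liver is a separate mouse. Alternatives were edgeR 4.0.16 (TMM, DESeq2 size factors, library totals), DESeq2 1.42.0, pseudocounts of 0.5 and 4, no filter, leaving out each liver, and the label series, as a subset of livers or as a covariate. The fits were checked on simulated data. Precision is limited by depth for genes with few reads and by the number of livers for the others.

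The 34 genes, the role groups and the other gene lists were chosen with earlier results of these data known, so lists were given no test. Values of each liver are given, by rule, for members that passed, for those with a 2-fold range among TgLC livers, and for Acat2, Dhcr7, Srebf2, Soat1, Soat2 and Lcat. Of each further list, up to 2 rising and 2 falling genes with the smallest adjusted p are named. Abcg5 and Abcg8 are named in addition, because they fell while the pumps Abca1 and Abcg1 rose. Symbols were matched for 22679 of 23594 identifiers. Levels per kilobase use merged exons of GENCODE M21, and shared stretches are those of at least 150 bases at 95% identity between its transcripts. Promoters are from RefSeq (GRCm38.p6). Some genes of the pathway are not reported here.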

Additional observations from a re-analysis of the deposited data

Results flagged for a closer look

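Npc1l1 in TgLC 2 stood apart from the other 3 TgLC livers. It held 1.02 normalized counts, the value of 1 read, while the others were at 0. With the other 3 at 0, the rule used flags any value above 0, so the flag was fixed in advance. A single read carries no weight at this depth.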

How the results depend on the processing

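No paired analysis was possible because the labels give the groups no shared replicate numbers. The precision of single genes is limited by 3 and 4 livers, and the hour of collection is not known. With the label series as a covariate 11 members were lower and 4 higher, and 5 synthesis genes were lower in place of 3. Of all 13145 genes tested, 4384 passed in that fit, against 4104 in the main fit. That covariate set all livers outside the series as one level, although their labels differ in form. All 12 members that passed kept their direction in every alternative tried.

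With single livers left out, the number of members lower ranged from 6 to 11, the number higher from 0 to 5 and the number of all genes that passed from 2586 to 4119. The 0 members higher by limma came without TgL 1 or without TgL 2, where 4 and 3 were higher at an unadjusted p under 0.05. In the 3 livers outside the label series, an alternative chosen after seeing the data, 2 members were lower, 0 higher (4 at an unadjusted p under 0.05 by limma) and 850 of all genes passed. With library totals in edgeR, 13 were lower and 0 higher (1 at an unadjusted p under 0.05), and 5541 of all 13572 genes tested passed. Pseudocounts, no filter, edgeR with TMM or size factors and DESeq2 left the counts of members at 9 or 10 lower and 3 higher.

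Members that did not pass and lay near 0 changed sign. Fdps (main value -0.12) was 0.07 without TgL 3, 0.18 without TgLC 1 and 0.19 without TgLC 3 (range over single livers left out -0.42 to 0.19), 0.0674 in one label series, 0.11 with edgeR and TMM, and 0.13 with edgeR and size factors or with DESeq2. Cyp51 was 0.14 without TgL 3 and 0.25 without TgLC 1 (range -0.36 to 0.25). Hsd17b7 was 0.14 without TgL 3, 0.19 without TgLC 1, 0.05 without TgLC 3 (range -0.20 to 0.19), 0.0075 with TMM, 0.0273 with size factors and 0.0272 with DESeq2. Soat1 was 0.16 without TgL 3, 0.04 without TgLC 3, 0.06 without TgLC 4 (range -0.18 to 0.16) and 0.46 in one label series. Msmo1 was -8.63e-06 in one label series, and Srebf2 was -0.12 with library totals. The cause of these changes was not tested.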
